A study of Mus musculus with 8 samples.

Results

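The genes described are 10 genes of the Notch signalling pathway. They comprise 3 receptors (Notch1, Notch2 and Notch3), 5 ligands (Dll1, Dll3, Dll4, Jag1 and Jag2) and 2 target genes (Hey1 and Hey2), and were chosen by name. Their RefSeq accessions matched 13 of the 55681 probes of the array, and all 10 genes passed the filter on dim probes and stood among the 26874 genes and transcripts tested. The arrays measured RNA of mouse neural stem cells taken from embryos of the OF-1 strain at stage E13.5. From isolation on, parallel cultures in serum-free medium were kept for at least 10 days either at 21% oxygen, the level of air (named normoxia), or at 5% oxygen (named hypoxia). There were 4 cultures of each kind, from 4 independent experiments on different donors, and no genetic change or drug in either group. Same-numbered cultures are called a pair here, although no label states outright that they share donors. Whether pooled embryos made up a culture is not given in the sources used here.

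Notch receptors and their ligands are membrane proteins, so a signal passes between touching cells. Binding of a Delta-like or Jagged ligand lets the receptor be cut, and its intracellular part then joins the DNA-binding protein Rbpj in the nucleus and switches on repressor genes of the Hes and Hey families. In the embryonic brain this signalling holds back proneural genes and keeps neural stem cells undifferentiated, and Hey2 and several of the ligands also act in blood vessels.

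Values are log2 signal minus the 75th percentile of each array, so a difference of 1 is a doubling. A level can be compared between arrays but not between genes, because each probe binds with its own strength. The main test, called the paired fit, was limma with the replicate number as a block, with Benjamini-Hochberg adjustment over the 26874 genes and a threshold of 0.05. Each array held 62976 spots, of which, leaving out controls, 64.4% to 73.9% gave a signal well above background. The 75th percentile of the signals ran from 1909 to 7352 intensity units, with the normoxia array above its partner in pairs 1, 2 and 4 and below it in pair 3. All 8 stem cell and radial glia markers, such as Nes, Sox2 and Fabp7, were well above background on all 8 arrays, and none passed the threshold. Of 10 genes known as targets of hypoxia-inducible factor (HIF), which checked the oxygen labels, 8 rose in the paired fit by 1.07 to 4.25 (Vegfa, Slc2a1, Car9, Ndrg1, Egln3, Bnip3, Pdk1 and Ankrd37), while Pgk1 (0.50) and Ldha (0.20) did not pass.

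The promoter sequences of Jag2 and Hey2 are shown because these were the 2 members whose level rose, and that of Jag1 because it is the close relative of Jag2 on which no such rise was seen. Each window runs from 250 bases before the annotated start of transcription through the first 50 bases of the transcript, 5′ to 3′ on the gene's own strand, as RefSeq gives it for assembly GRCm38.p6. Capitals mark matches, on either strand, to TGGGAA (the core of the Rbpj binding site), to ACGTG and GCGTG (cores of the site that HIF binds), and to the E-box CACGTG. Jag2 lies on the minus strand with its window at chr12:112929446-112929745, Hey2 on the minus strand at chr10:30842734-30843033, and Jag1 on the minus strand at chr2:137116471-137116770.
Jag2: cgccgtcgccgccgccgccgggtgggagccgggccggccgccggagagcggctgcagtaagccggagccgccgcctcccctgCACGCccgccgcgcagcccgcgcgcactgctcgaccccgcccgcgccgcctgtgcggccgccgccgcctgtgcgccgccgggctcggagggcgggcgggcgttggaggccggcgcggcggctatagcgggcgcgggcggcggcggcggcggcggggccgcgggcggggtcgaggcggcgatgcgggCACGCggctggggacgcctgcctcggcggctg
Hey2: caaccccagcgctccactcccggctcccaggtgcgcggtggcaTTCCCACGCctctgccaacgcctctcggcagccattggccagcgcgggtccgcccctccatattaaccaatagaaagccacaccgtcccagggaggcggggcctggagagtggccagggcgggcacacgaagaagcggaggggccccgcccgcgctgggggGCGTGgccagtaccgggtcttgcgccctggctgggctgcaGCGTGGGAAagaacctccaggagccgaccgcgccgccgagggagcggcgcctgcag
Jag1: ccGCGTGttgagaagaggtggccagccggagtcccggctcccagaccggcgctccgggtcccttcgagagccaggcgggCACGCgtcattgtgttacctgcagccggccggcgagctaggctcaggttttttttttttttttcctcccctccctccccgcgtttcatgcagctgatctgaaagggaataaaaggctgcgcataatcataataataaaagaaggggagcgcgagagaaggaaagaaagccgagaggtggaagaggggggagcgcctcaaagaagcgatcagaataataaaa
The Jag2 window had a GC content of 86% and 2 matches to GCGTG, both on the reverse strand. One ended 164 bases before the start and the other covered bases 19 to 23 of the transcript. The Hey2 window held 3 matches to GCGTG and 2 to TGGGAA. In both places with TGGGAA the match overlapped a match to GCGTG, and one of these places spanned the start of transcription. The overlap is the letters TG, on which GCGTG ends and TGGGAA begins, so the make-up of the motifs allows it. How often such overlaps occur over all windows was not counted. The Jag1 window held 2 matches to GCGTG. A window was found for 9 of the 10 members, and Hey1 was without an entry. GCGTG occurred in the windows of all of these genes but Dll3, ACGTG only in that of Notch3, TGGGAA only in that of Hey2, and CACGTG in none. Of all 32851 windows of this length, 32.4% held GCGTG, 19.6% ACGTG, 25.6% TGGGAA and 7.15% CACGTG. The GC content of the members' windows ran from 52% (Dll3) to 86% (Jag2). The set of all windows was not matched for it, so these shares cannot show an excess in the members. A match of letters is a description of the window and not a bound site.

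At 5% oxygen Jag2, a Jagged ligand, rose by 4.22-fold and Hey2, a repressor of the Hey family, by 2.62-fold. The other 8 genes did not pass the test, and none of the 10 fell. Thus 2 of 10 members were called, both rising, where 5.54% of all genes tested were called in the same fit, 4.25% rising and 1.29% falling. Jag2 and Hey2 were also the only members higher in all 4 pairs, as were 15.3% of all genes. In the fit without the replicate block, which called 0.0893% of all genes as rising, no member passed. The median change over the 10 members was 0.09, beside 0.03 over all genes.

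The 3 receptors showed no change past the threshold. Notch1, which is the receptor best known from neural stem cells, lay at -1.41, -1.31, -2.56 and -1.84 on normoxia arrays 1 to 4. On hypoxia arrays 1 to 4 it lay at -1.98, -0.61, -2.27 and -2.36. The groups overlapped, with replicate 2 highest in both, and Notch1 was lower at 5% oxygen in pairs 1 and 4 and higher in pairs 2 and 3. Its change was -0.02 (SE 0.23, 95% interval -0.55 to 0.50, limma paired adjusted p = 0.97). A second Notch1 probe had a change of -0.34 (adjusted p = 0.322 over 37669 probes) and moved in the same direction as the first in 1 of the 4 pairs.

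Notch2, a receptor close to Notch1 in structure, lay at 1.06, -0.02, 0.29 and 1.64 in normoxia and at 0.99, 0.14, -0.09 and 0.77 in hypoxia. Arrays of replicates 1 and 4 were high and replicates 2 and 3 low at either oxygen level. The change was -0.29 (SE 0.19, 95% interval -0.72 to 0.14, paired adjusted p = 0.45). A second, much dimmer Notch2 probe had a change of -0.0066 (adjusted p = 0.988 over 37669 probes), and the mean of both probes gave -0.15. Notch3, a receptor known also from the mural cells of vessels, lay at 2.34, 2.92, 3.27 and 2.95 in normoxia and at 3.03, 2.86, 3.24 and 2.85 in hypoxia. Pair 1 alone moved by more than 0.1 (0.69), and the change over all pairs was 0.13 (95% interval -0.27 to 0.52, paired adjusted p = 0.755).

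**Figure D1:**
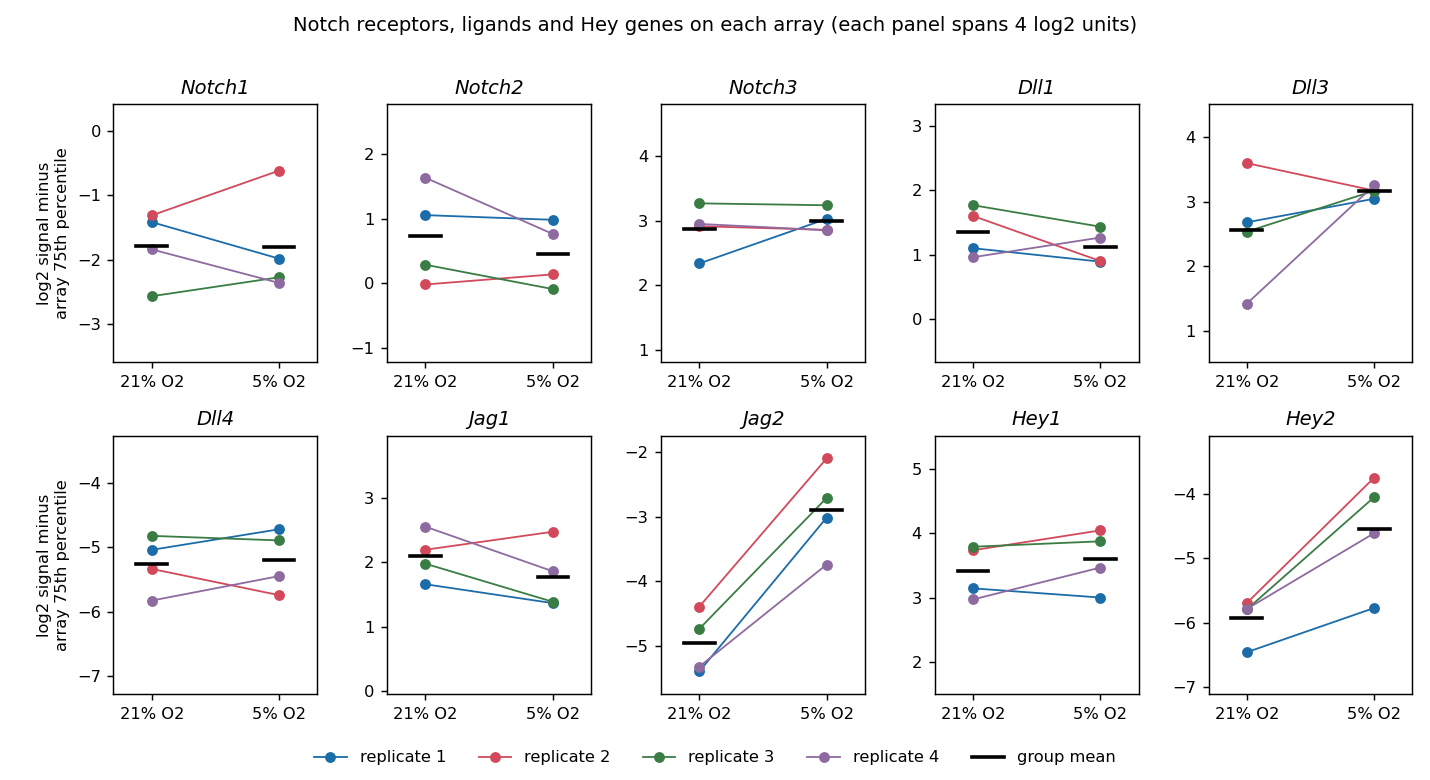
Level of each of the 10 genes on the 8 arrays, as log2 signal minus the array's 75th percentile (vertical axis), at 21% and 5% oxygen (horizontal axis). Lines join same-numbered arrays and black bars are group means of 4 arrays; the Jag2 and Hey2 lines all rise, whereas lines of the other 8 genes run in both directions.

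Among the Delta-like ligands, Dll1 is a main ligand of differentiating neural progenitors. It was printed in 10 spots per array, whose log2 signals had an SD of 0.027 to 0.0427 within an array. It lay at 1.10, 1.60, 1.76 and 0.96 in normoxia and at 0.89, 0.90, 1.43 and 1.26 in hypoxia, so its arrays differed by far more than its spots. The change was -0.23 (95% interval -0.65 to 0.18, paired adjusted p = 0.537), with pair 4 running against the other pairs. Dll3, a divergent Delta-like protein that works mostly inside the cell, lay at 2.68, 3.60, 2.54 and 1.42 in normoxia. In hypoxia it lay at 3.05, 3.17, 3.17 and 3.26.

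The Dll3 levels therefore spread widely in normoxia (SD 0.89, n = 4) and little in hypoxia (SD 0.09, n = 4), and this difference in spread was not tested. The change in pair 4 was 1.84 and that in pair 2 was -0.43, and a second Dll3 probe gave 1.86 and -0.40. Both probes moved in the same direction in all 4 pairs. The Dll3 change of 0.60 (SE 0.31, 95% interval -0.12 to 1.33) did not pass (paired adjusted p = 0.349), and it was 0.19 without pair 4. Dll4, the Delta-like ligand of sprouting vessels, lay between -5.83 and -4.82 in normoxia and between -5.74 and -4.72 in hypoxia, and was well above background on all 8 arrays. The Dll4 signals were low, at 2.58 to 4.08 times the lowest signal that counted as well above background on the same array. The change was 0.06 (95% interval -0.34 to 0.45, paired adjusted p = 0.904).

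Jag1, a Jagged ligand found in many progenitor tissues, lay at 1.66, 2.19, 1.97 and 2.55 in normoxia and at 1.36, 2.47, 1.38 and 1.86 in hypoxia. It was lower in hypoxia in pairs 1, 3 and 4 and higher in pair 2. The change was -0.32 (SE 0.18, 95% interval -0.75 to 0.10, paired adjusted p = 0.391).

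Jag2, the other Jagged ligand, lay at -5.40, -4.40, -4.74 and -5.33 on normoxia arrays 1 to 4. On hypoxia arrays 1 to 4 it lay at -3.01, -2.10, -2.71 and -3.74. The groups did not overlap, as for 3.14% of all genes with hypoxia above. Replicate 2 was highest in both groups, and the 4 pairs differed by 2.39, 2.30, 2.03 and 1.58. The mean went from -4.97 ± 0.48 to -2.89 ± 0.68 (SD, n = 4 per group). The change was 2.08 (SE 0.17, 95% interval 1.69 to 2.46, limma paired adjusted p = 0.00118), and 39 genes of the 26874 had a smaller p. Without the block the adjusted p was 0.0714, so this call rests on comparing cultures within experiments, while it stood without any 1 of the 4 pairs.

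Against Jag1, the Jag2 change was larger by 2.40 ± 0.31 (SD over 4 pairs), and larger in 4 of 4 pairs. The exact two-sided sign-flip permutation test of this difference gave p = 0.125, the smallest value that 4 pairs allow.

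**Figure D2:**
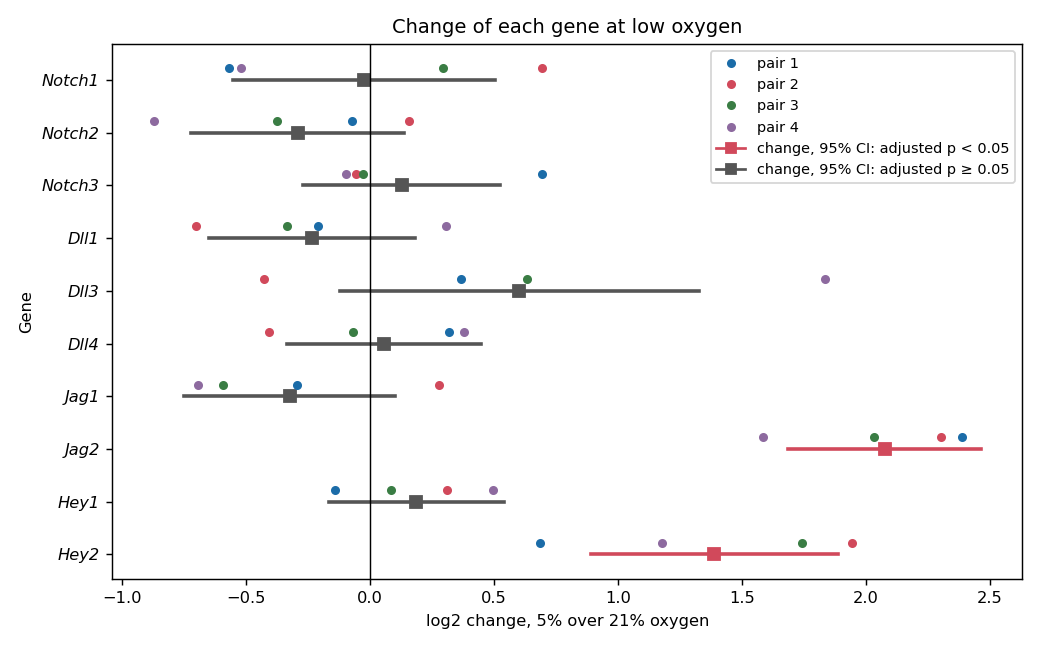
Change of each gene at 5% over 21% oxygen on the log2 scale, with 1 small point for each of the 4 pairs, and the fitted change (square) with its 95% interval (line). The intervals of Jag2 (1.69 to 2.46) and Hey2 (0.89 to 1.89) lie above 0, and those of the other 8 genes include 0.

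Hey1, a repressor that stands among the direct targets of the receptors, lay at 3.15, 3.74, 3.79 and 2.98 in normoxia and at 3.01, 4.05, 3.88 and 3.47 in hypoxia. Replicates 2 and 3 were high in both groups. The change was 0.19 (95% interval -0.17 to 0.54, paired adjusted p = 0.567).

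Hey2, its close relative, lay at -6.46, -5.70, -5.80 and -5.79 in normoxia and at -5.77, -3.75, -4.05 and -4.61 in hypoxia. Replicate 1 was lowest in both groups, and hypoxia replicate 1 lay within the range of the normoxia arrays. The pairs differed by 0.69, 1.95, 1.74 and 1.18. The mean went from -5.94 ± 0.35 to -4.55 ± 0.89 (SD, n = 4 per group), a change of 1.39 (SE 0.22, 95% interval 0.89 to 1.89, limma paired adjusted p = 0.0112). The call was lost without the block (adjusted p = 0.267), without pair 3 (0.0954) and with no filter on dim probes (0.0589). Its size depended on the processing. Over the 11 settings with a block that kept Hey2, the change ran from 0.94, with normexp background correction, to 1.39. Against Hey1, the Hey2 change was larger in 4 of 4 pairs, by 1.20 ± 0.52 (SD). The exact two-sided sign-flip permutation p was again 0.125, the smallest possible, and no conclusion is drawn from it.

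The 2 genes that rose had low signals. Before scaling, the Jag2 probe gave 70.8, 347, 199 and 183 intensity units on normoxia arrays 1 to 4 and 236, 1120, 1038 and 407 units on hypoxia arrays 1 to 4. These were between 2.25 times and 33.6 times the lowest signal that counted as well above background on the same array. The Hey2 probe gave 34.0, 141, 95.5 and 133 units in normoxia and 34.9, 355, 408 and 222 units in hypoxia. On normoxia replicate 1 it was not well above background, a mark set spot by spot, although other spots with a slightly lower signal on that array were. In pair 1 the unscaled Hey2 signals were thus nearly equal, and the scaled change of 0.69 there is nearly all the gap between the 75th percentiles by which the 2 arrays were divided (2990 units in normoxia, 1909 in hypoxia).

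**Figure D3:**
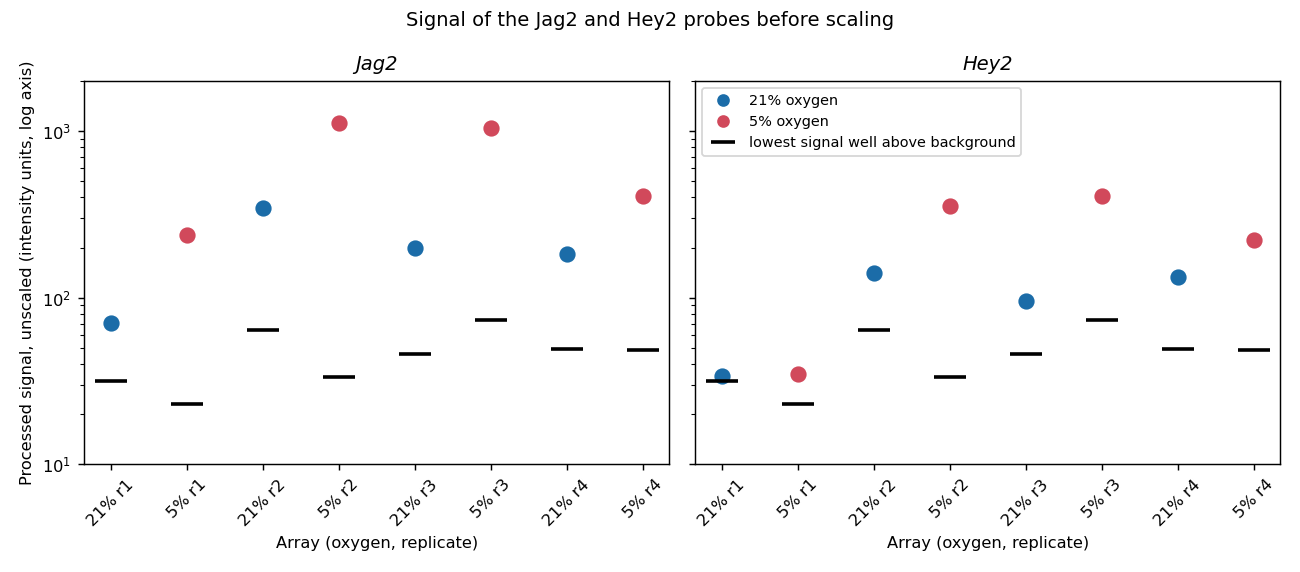
Processed signal of the Jag2 and Hey2 probes on each array before scaling, in intensity units on a log axis, with black dashes for the lowest signal that was well above background on that array. The Jag2 signal is higher at 5% oxygen (red) than at 21% (blue) in every pair, and the Hey2 signals of replicate 1 (34.0 and 34.9) nearly coincide.

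How much of each gene's spread followed the experiment and how much the oxygen level differed among the members. For Jag2, oxygen took 80.4% of the sum of squares over the 8 arrays and the replicate number 17.8%. For Hey2 the shares were 58.3% and 34.3%. For Hey1, Dll4, Notch2 and Notch1 the replicate number took 80.2% to 85.0%, and oxygen at most 6.46%. Over all genes the median shares were 65.5% for the replicate number and 8.38% for oxygen. Dll3 (42.0%) and Notch3 (36.6%) had the largest share that followed neither, that is, a response that differed from pair to pair or error of measurement.

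**Figure D4:**
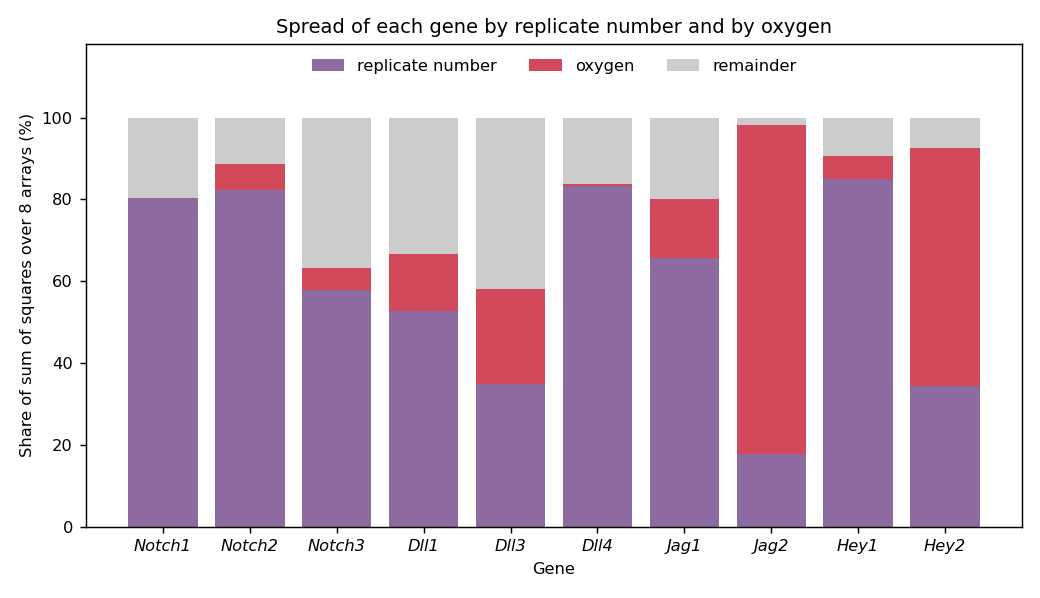
Share of each gene's sum of squares over the 8 arrays (vertical axis, percent) that followed the replicate number, the oxygen level, or neither. Oxygen takes 80.4% for Jag2 and 58.3% for Hey2, and the replicate number takes the largest part for each other gene but Dll3.

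The 5 RefSeq genes whose levels followed that of Jag2 most closely over the 8 arrays were P4ha1, Cox7a1, Rcn3, Pfkfb3 and Ggt7. Their Pearson correlations with Jag2 were 0.992 to 0.997. They are the top 5 of 16039 genes and were picked for this likeness, the 8 arrays come in 4 pairs, and both oxygen groups enter, so the values are a description only. P4ha1, a collagen prolyl hydroxylase, differed between the oxygen levels by 1.51 and Pfkfb3, an activator of glycolysis, by 1.29.

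Other genes of the pathway were read from lists grouped by role, with 65 of 71 genes tested. Of these, 4 rose (Mfap2, Egfl7, Dlk1 and Dtx1) and none fell, against 4.25% and 1.29% of all genes, and the median change was -0.04. Of the 7 non-canonical ligands and modulators tested, 3 rose. Mfap2, a microfibril protein that can bind Jagged ligands, lay at 1.11, 1.42, 1.74 and 1.11 in normoxia and at 2.25, 2.30, 2.66 and 1.83 in hypoxia. The groups did not overlap, and the change was 0.91 (SE 0.14, paired adjusted p = 0.00984). Egfl7, a secreted protein best known from endothelium, lay at 1.53, 1.56, 1.32 and 1.18 in normoxia and at 2.44, 2.90, 2.10 and 1.74 in hypoxia, again without overlap. Its change was 0.90 (SE 0.16, paired adjusted p = 0.019).

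Dlk1, a Delta-like protein without the receptor-binding domain of the canonical ligands, lay at -1.10, -1.89, -2.10 and -0.77 in normoxia. In hypoxia it lay at -0.71, -0.68, 0.51 and 0.34, with a gap of less than 0.1 between the groups. Its change was 1.33 (SE 0.31, paired adjusted p = 0.0497), and a second probe differed by 0.94 (adjusted p = 0.172 over 37669 probes). Dtx1, a ubiquitin ligase that acts on Notch receptors, lay at 1.07, 1.13, 0.77 and -0.25 in normoxia and at 1.43, 1.66, 1.50 and 0.81 in hypoxia. The groups overlapped, and the change was 0.67 (SE 0.16, paired adjusted p = 0.0498). None of the 4 passed without the block, where the adjusted p was 0.193 for Mfap2, 0.25 for Egfl7, 0.265 for Dlk1 and 0.678 for Dtx1. The Dtx1 call was lost without any 1 pair (adjusted p 0.0962 to 0.173), and the Egfl7 call stood only without pair 4. The Dlk1 call was lost without pair 2 (0.142) or 3 (0.114), and the Mfap2 call without pair 1 (0.0592) or 3 (0.0598). Of 12 settings with a block, Dlk1 was called in 6 and Dtx1 in 7, and both were lost with median scaling (0.0764 and 0.0829).

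No gene of the other roles passed the test. Of 8 receptor-processing genes, the protease gene Furin (-0.39, paired adjusted p = 0.153) and the gamma-secretase subunit gene Ncstn (-0.25, 0.525) had the smallest p. Among the 5 glycosyltransferases these were Lfng (-0.79, paired adjusted p = 0.117) and Poglut1 (-0.20, 0.584). The nuclear complex and its corepressors had 13 of 16 genes below 0 and a median of -0.15, beside 12303 of all 26874 genes and 0.03. All were read on the same 4 pairs, so their signs are not independent. Of the 16, Hdac2 (-0.37, paired adjusted p = 0.198) and Ep300 (-0.37, 0.313) had the smallest p. The receptor gene Notch4 had a change of -0.63 (paired adjusted p = 0.124).

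Target genes other than Hey1 and Hey2 gave no call among 10 tested, with a median change of 0.08. Fabp7 (0.31, paired adjusted p = 0.265) and Ccnd1 (0.21, 0.427) had the smallest p. Hes1 and Hes5, the Hes repressors best known from neural stem cells, are named here after their values were seen. Hes1 had a change of -0.02 (SE 0.14, paired adjusted p = 0.952) and Hes5 of -0.28 (SE 0.30, paired adjusted p = 0.676). Of the proneural genes that Notch signalling holds down, 4 of 6 were tested and none passed, with Neurod1 at -0.69 (paired adjusted p = 0.082) and Neurog2 at 0.93 (0.109). A second, dimmer Neurod1 probe had a change of -1.60 and did pass (adjusted p = 0.0279 over 37669 probes), with a signal well above background on 4 normoxia arrays and 1 hypoxia array. The mean of both Neurod1 probes, which includes the dimmer one, gave -1.15 (paired adjusted p = 0.0399). The dimmer probe passed the filter on dim probes only through normoxia, the group where it was high. No conclusion is drawn from its call or from that of the mean.

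**Figure D5:**
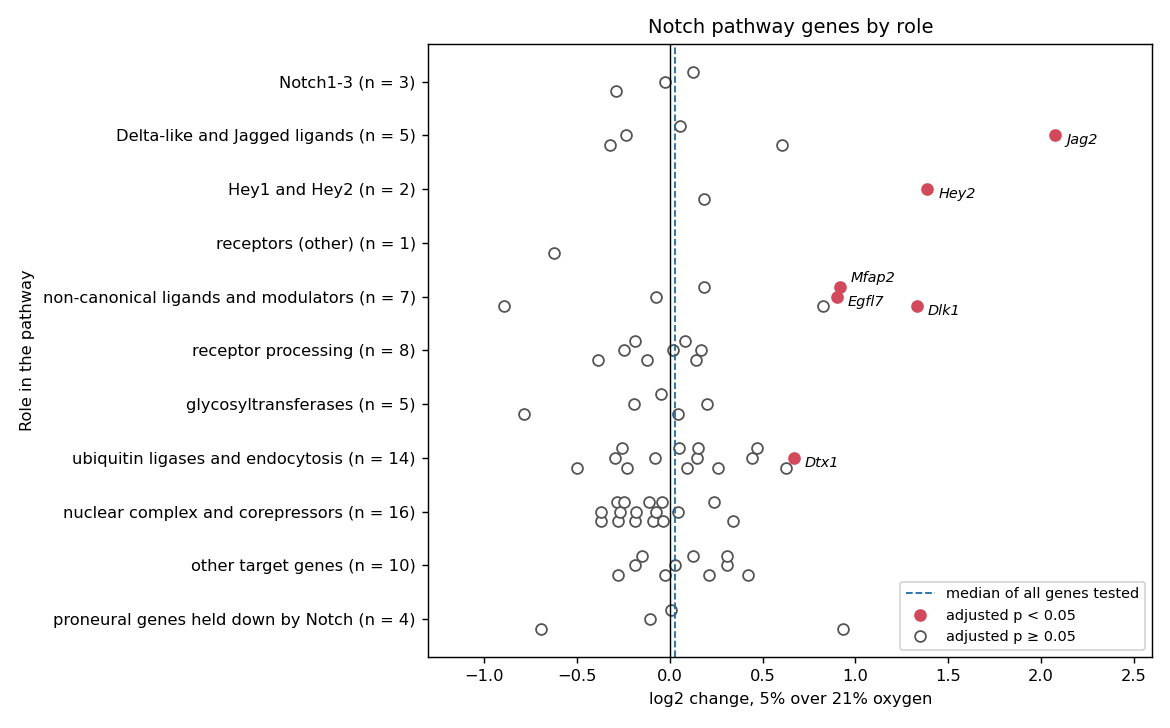
Change of each tested Notch pathway gene at 5% over 21% oxygen on the log2 scale (horizontal axis), by role (rows); filled points passed the threshold in the paired fit. Jag2, Hey2, Dlk1, Mfap2, Egfl7 and Dtx1 are the 6 filled points, all to the right of 0, and the dashed line marks the median of all genes (0.03).

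Jag2, Hey2, Egfl7 and Notch3 are also genes of vessel cells, so markers of these cells were read on the same arrays. Of 10 endothelial markers 8 were tested, of which Cldn5, Tek and Emcn fell and Flt1 rose. Tek was well above background on 3 normoxia arrays and 1 hypoxia array, and Emcn on 4 and 1. Both passed the filter on dim probes only through normoxia, the group where they were high, so no conclusion is drawn from these calls. The mean level of the 8 tested markers was -3.51 to -3.02 on the normoxia arrays and -3.81 to -3.19 on the hypoxia arrays. The defining marker Cdh5 was well above background on 1 normoxia array and 2 hypoxia arrays, and Tie1 on none. Of 9 mural cell markers 6 were tested, of which Pdgfrb and Des rose and Acta2 fell, with mean levels of -3.52 to -1.36 in normoxia and -3.06 to -1.25 in hypoxia. Markers of other cell types that a culture could hold were read too. Of these, 1 of 8 neuronal, 2 of 8 oligodendrocyte lineage and 1 of 6 astrocyte genes rose and none fell. Of 7 meningeal fibroblast genes 3 rose and 2 fell, and none of 6 microglia genes passed. Over all genes 4.25% rose and 1.29% fell. Called or not, 6 of 6 astrocyte genes (median change 0.47) and 7 of 8 oligodendrocyte lineage genes (0.66) were higher at 5% oxygen. So were 5 of 7 meningeal fibroblast (1.22), 3 of 8 neuronal (-0.02) and 3 of 6 microglia genes (-0.0021), and 14571 of all 26874 genes. Pdgfra (change 1.69) stands in both the oligodendrocyte lineage and the meningeal fibroblast list, so these counts share a gene. The part of any of these cells in the changes of the Notch genes was not tested. In RNA of whole cultures, fewer cells of a type and less RNA per cell cannot be told apart.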

How the data were processed

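RNA of 8 cultures, carrying the dye Cy3, was read on 8 single-colour Agilent mouse arrays of 1 slide, with an array design built on mm9. The submitters' processing notes name Agilent Feature Extraction (10.7.3.1) as the source of the deposited intensity values, which per the file headers are background-subtracted and detrended but not scaled between arrays. The values of the authors' deposited table are log2. They equal log2 signal minus the array's 75th percentile over its probes and minus each probe's median, to within 0.01 for 99.8% of probes on each array, with column medians of -0.12 to 0.25, and served as an alternative setting.

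Here the log2 processed signal was set relative to the 75th percentile of all non-control spots of its array, without control and outlier spots, averaged per probe. Kept were 37669 probes, well above background on at least 3 of 4 arrays of a group. Probes were named through RefSeq accessions of GRCm38.p6 (27235 of 55681 matched), and the probe with the highest mean stood for a gene. No coordinates of probes are given. Changes were tested with limma 3.58.1 in R 4.3.3 (lmFit and eBayes). The replicate number was the block because, per the labels, the 4 experiments used different donors and the oxygen levels ran in parallel. No label states outright that same-numbered cultures share donors. Deviations from group means correlated between same-numbered arrays at 0.76, 0.51, 0.38 and 0.66, each above that with any other number. For replicates 2 and 3 the highest correlation with another number was 0.31, so replicate 3 (0.38) stood only a little above it. Data of this comparison were simulated 3 times over 26830 genes with the replicate effects fitted here, and 200 genes were changed each time. Pairing was thus built in, and the simulation cannot check it. Genes changed 2-fold were recovered by the paired fit in 27.3% of cases, 3-fold in 74% and 4-fold in 84.7%, and 8 of 288 calls were false. The fit without the block recovered 4.67%, 45.3% and 72%, and 0 of 183 calls were false. In the data the paired fit called 1488 genes. With so few changed genes the adjustment was stricter in the simulation, so these shares do not give the sensitivity in the data.

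Members, lists and tests were chosen with earlier results of these data known. Named genes were all members, called pathway genes or else the 2 with the smallest p per role, the HIF targets, and the 5 genes most like Jag2. Outside this rule, Hes1, Hes5, Atoh1 and the cell type markers named were chosen after their values were seen. Alternatives covered the block, scaling, background correction, filter, gene summary, spot flags, value table, moderation, and leaving out arrays or pairs.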

Additional observations from a re-analysis of the deposited data

Results flagged for a closer look

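Hey2 on normoxia replicate 1 lay at -6.46, apart from the other 3 normoxia arrays at -5.80 to -5.70. The gap was 0.87 of the whole range, above Dixon's 95% critical value for 4 samples. Of 28 groups of 4 arrays tested this way (14 genes at 2 oxygen levels) 1 stood out, and chance gives about 1 in 20. This array was the 1 on which Hey2 was not well above background. Without pair 1 the Hey2 change was 1.62.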

How the results depend on the processing

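Jag2 kept its direction and its call in all 12 settings with a block (change 1.63 to 2.08) and without any 1 pair (1.97 to 2.24). Without the replicate block (limma), 24 genes rose and 0 fell, with 2158 at an unadjusted p under 0.05, and 0 members and 0 pathway genes were called. The paired fit rests on reading same-numbered arrays as 1 experiment, which no label states outright, and with all 8 arrays every member and pathway call was lost without the block. With no filter on dim probes, which adds many genes to the adjustment, 379 genes rose and 71 fell, 1 member (Jag2) and 1 pathway gene (Mfap2) rose. Requiring a signal well above background on all 8 arrays left out Hey2, so that 1 member was called. With trend and robust moderation 647 genes fell, and 7 pathway genes rose and 2 fell. The pathway genes that rose were 2 with median scaling, with outlier spots kept, and with a floor of 64 intensity units, a setting added after seeing the data. Pathway genes also fell in 6 further settings: 1 with the replicate as a random block (Dtx4), 1 with median scaling or with the mean of a gene's probes (Neurod1), 1 in the authors' deposited value table or with probes well above background on all arrays (Cntn6), and 2 with normexp background correction (Cntn6 and Dtx4). Dlk1 lost its call with median scaling (adjusted p = 0.0764), quantile normalization (0.0732), the mean of probes (0.0868), no filter (0.162), outlier spots kept (0.0506) and the floor (0.0768). Dtx1 lost it with the random block (0.0728), median scaling (0.0829), no filter (0.152), outlier spots kept (0.0504) and the floor (0.0574), and Egfl7 with no filter (0.0806). The Dll4 change was -0.0094 with quantile normalization; the cause was not tested.

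Leaving out 1 pair at a time in the paired fit gave 329 to 1082 genes that rose (329 without pair 3) and 60 to 367 that fell (60 without pair 3), with 1 member called without pair 3 and 2 otherwise, and 0 to 3 pathway genes. Leaving out 1 array at a time without the block gave 0 to 54 genes that rose, 0 to 3 that fell, 0 to 1 members (Jag2 without hypoxia replicate 4) and 0 pathway genes. Over both kinds of leave-out the change ran from -0.42 to 0.16 for Notch1, -0.54 to 0.0073 for Notch2, -0.061 to 0.26 for Notch3 and -0.13 to 0.24 for Dll4, so these 4 genes have no settled direction. Of the single-gene changes under the other alternatives, 147 stayed on their side of the threshold, 19 lost the call and 1 turned sign. Members not called in the main fit had no call to lose, yet they count among the 147. All 19 losses fell on Jag2, Hey2, Mfap2, Egfl7, Dlk1 and Dtx1. The median of all genes moved between -0.03 and 0.06 across those settings. Low signal limits Hey2, Dll4 and the normoxia levels of Jag2, and 4 pairs limit all of these values.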

Other observations

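The proneural gene Atoh1 did not reach the filter on dim probes. Its probe was well above background on hypoxia replicate 3 alone, at 119 intensity units, against 5.37 to 26.4 units on the other hypoxia arrays and at most 14.0 units on the normoxia arrays. The spot carried no outlier flag.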
